A study of Sus scrofa domesticus with 30 samples.

Results

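Prostaglandins are lipid signals that endometrium makes, moves, answers and destroys, and 10 genes of that system are described here across pig endometrium: the cyclooxygenases PTGS1 and PTGS2, the terminal synthases PTGES, AKR1B1 and PTGIS, the inactivating enzyme HPGD, the transporter SLCO2A1 and the receptors PTGFR, PTGER2 and PTGER4. They were chosen by gene symbol, each symbol matched 1 of 28224 gene models in the mRNA table, and all 10 lay above the filter on low values (above the floor of 1 in at least 7 libraries). The tissue came from 15 pregnant gilts (young female pigs, crossbred from Landrace, Yorkshire and Duroc) on pregnancy day 13, with 1 poly(A) mRNA library and 1 small-RNA library per gilt. On the first day of life 7 of them were classed as low and 8 as high by immunocrit (iCrit), a blood measure of absorbed immunoglobulin that reflects colostrum intake. iCrit was measured, not imposed, and the labels give no litter, sire or batch. Gilts of both groups had the same penicillin and iron dextran at birth, were weaned to the same feeds, entered the breeding area at 170 days of age (age at collection is not stated in the labels) and were artificially inseminated with commercial semen. A further low iCrit gilt was not pregnant and was removed by the submitters. By its title, the study concerns what a lack of milk-borne signals in the newborn does to the adult endometrial transcriptome.

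Cyclooxygenases convert arachidonic acid, which phospholipase A2 frees from membranes, into prostaglandin H2, and terminal synthases turn that into prostaglandin E2, prostaglandin F2α or prostacyclin. In the cycling pig, prostaglandin F2α from the endometrium ends the life of the corpus luteum, whereas prostaglandin E2 protects it. In early pregnancy the elongating conceptuses send estrogen and the endometrial balance of these prostaglandins changes. Values below are the authors' normalized expression values, linear and without a unit beyond their own scale. They were not corrected for transcript length, so the levels of different genes are not compared.

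The mRNA libraries held an estimated 23.6 to 63.4 M reads (M, 1e6), on average 41.3 ± 13.2 M for low iCrit (SD, n = 7) and 34.5 ± 5.24 M for high iCrit (SD, n = 8). Epithelial, stromal, endothelial and smooth muscle markers were all present, and of the 8 epithelial markers only KRT7 was at the floor in every library. Low iCrit replicate 2 had the lowest summed epithelial level, 84630 against 112169 to 169713 in the other libraries. In high iCrit replicate 8 the conceptus genes IFNG and PLET1 stood at 2803 and 3947, against at most 203 and 122 in any other library. The estimate of reads was lowest for high iCrit replicate 7. These 3 libraries have been seen to stand apart in earlier results of the same data, and values without each of them are given where they matter. Low iCrit replicate 6 was not among them, yet had the highest summed levels of smooth muscle markers, 35981, and of stromal markers, 615989. The next highest libraries stood at 21194 and 297325.

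None of the 10 genes differed between low and high iCrit endometrium beyond the spread between gilts. By limma on log2(value + 1), adjusted over 16819 tested genes, 0 of 10 passed, as did 0 of all genes tested (0%), and the members' adjusted p ran from 0.694 to 0.991. At an unadjusted p under 0.05 there was 1 member, PTGIS, against 1200 genes in all (7.13%), of which 455 had the higher mean in low iCrit gilts (2.71%) and 745 the lower (4.43%). In 0 of 10 genes did the groups lie wholly apart, which happened in 12 of all tested genes (0.0713%). Of the members 5 had a higher and 5 a lower log2 mean in low iCrit gilts, with a median difference of 0.08, against 48.3% higher and a median of -0.01 over all tested genes. Quantile normalization and median centring left that count at 5 and 5.

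**Figure D1:**
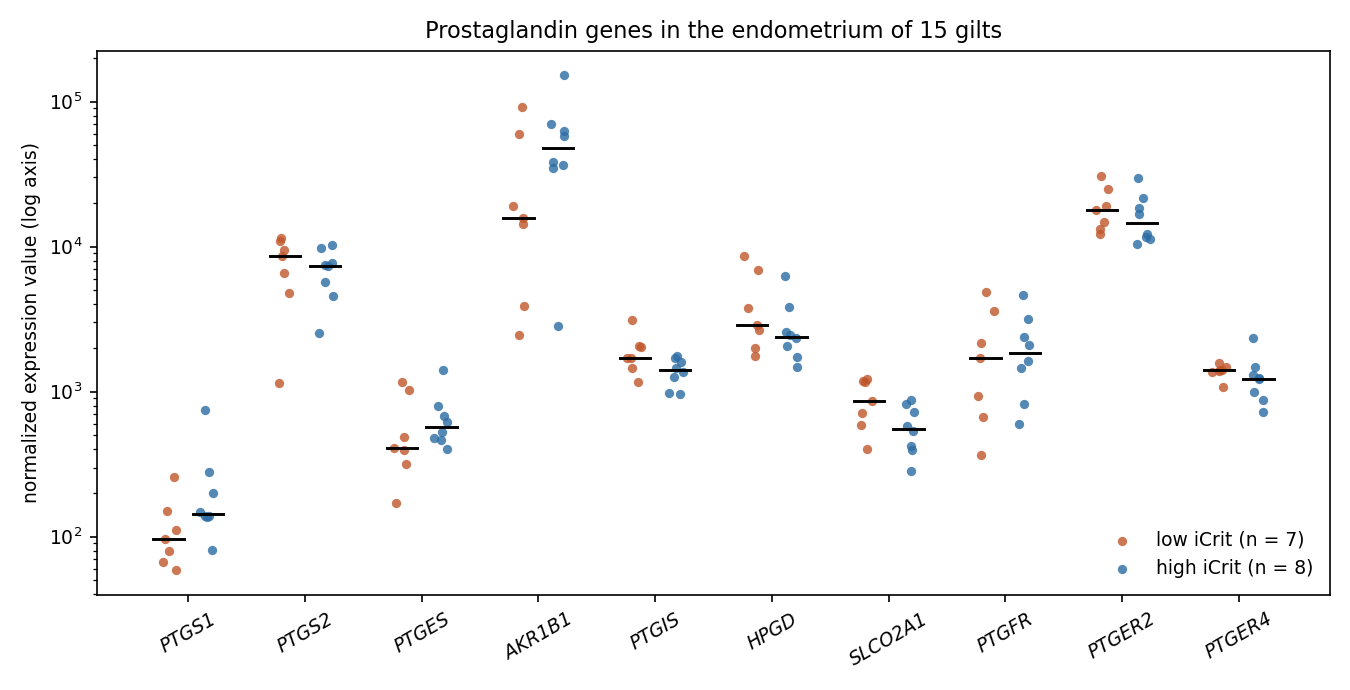
Normalized expression values (log axis) of the 10 prostaglandin genes in each of 15 gilts. Each point is 1 gilt, low iCrit (n = 7) in orange and high iCrit (n = 8) in blue, and each black bar is the group median. The groups overlap for every gene, and AKR1B1 spans the widest range, from 2445 to 151356.

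Most of these genes spread widely between gilts of the same group. The SD within groups, on the log2 scale, had a median of 0.40 over all tested genes, with quartiles of 0.25 and 0.66. For 6 of the 10 members it lay above the upper quartile, with AKR1B1 at 1.78 (percentile 98.7 of tested genes), PTGFR at 1.16 (94.5), PTGS2 at 0.93 (88.6), PTGS1 at 0.86 (86.0), PTGES at 0.78 (82.1) and HPGD at 0.76 (81.5). PTGER2 and SLCO2A1 stood at 0.51 and 0.58. PTGER4 at 0.396 and PTGIS at 0.389 lay at the median of tested genes. No test was made of these ranks, which are not matched for expression level, and the 10 members were chosen with earlier results of these data known.

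PTGS2, the inducible cyclooxygenase (gene model on chromosome 9, 127850164 to 127858866, minus strand; coordinates here and below as deposited, equal to Sscrofa11.1 unless said), had low iCrit values of 1140, 8576 and 11522 at the lowest, median and highest. In high iCrit gilts these were 2547, 7362 and 10184. The groups overlapped through most of their range, with low iCrit replicate 2 far below all others. Low minus high, the log2 difference was -0.03 ± 0.43 (SE, limma adjusted p = 0.991), with a 95% interval from -0.95 to 0.88. Without low iCrit replicate 2 the difference was 0.38, and its sign also turned in several of the other settings tried.

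PTGS1, the cyclooxygenase that most tissues make at a steady rate (chromosome 1, 262456106 to 262482159), had values of 58.9, 96.8 and 259 in low iCrit gilts at the lowest, median and highest. In high iCrit gilts they were 81.1, 144 and 749. Of the low iCrit gilts 3 lay below every high iCrit gilt, and the single value of 749 belonged to high iCrit replicate 8. On the log2 scale the groups differed by -0.82 ± 0.41 (SE, limma adjusted p = 0.719, 95% interval -1.69 to 0.06), and -0.53 without high iCrit replicate 8, the library with high IFNG and PLET1. With all 3 libraries apart left out it was -0.33, and without low iCrit replicate 7 alone it was -1.04. Summed conceptus markers (10 of the 12 listed were in the table) ran from 6395 to 10450 in low iCrit gilts. In high iCrit gilts they ran from 4728 to 15145, highest in high iCrit replicate 8. Most of that sum was GATA2, which alone ran from 5898 to 10204 in low and from 4401 to 9889 in high iCrit gilts. A mean on the log2 scale was also taken over the 9 of these markers that passed the filter on low values (CDX2 did not). Across the 15 gilts PTGS1 and that mean had r = 0.68 (permutation p = 0.00964, adjusted 0.0923 over 80 relations). By rho it was 0.58 (permutation p = 0.0263, adjusted 0.207), and r was 0.29 without low iCrit replicate 6 and high iCrit replicate 8. It did not pass, and other relations that did not pass had a smaller p. These were PTGES with blood markers (r = 0.66, permutation p = 0.00605, adjusted 0.0807) and PTGIS with endothelial markers (r = 0.66, permutation p = 0.00845, adjusted 0.0923). PTGS1 with leukocyte markers had r = 0.50 (permutation p = 0.0617, adjusted 0.308).

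PTGES, the microsomal synthase of prostaglandin E2 (chromosome 1, 269911785 to 269924481), stood at 170, 407 and 1174 in low iCrit gilts at the lowest, median and highest. In high iCrit gilts it stood at 399, 575 and 1411. The 3 lowest values among all gilts were from low iCrit gilts, yet the highest gilts of both groups stood close together. The log2 difference was -0.40 ± 0.37 (SE, limma adjusted p = 0.855, 95% interval -1.18 to 0.38), and it moved to -0.16 when low iCrit replicate 2 was left out, to -0.23 for high iCrit replicate 6 and to -0.62 for low iCrit replicate 1. All 3 libraries apart left out, it was -0.20.

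AKR1B1, an aldo-keto reductase that makes prostaglandin F2α besides reducing sugars (chromosome 18, 14593516 to 14752316), varied most. Its values were 2445, 15824 and 91706 in low iCrit gilts at the lowest, median and highest, and 2841, 47826 and 151356 in high iCrit gilts, a 61.9-fold range over all. Of the 15 libraries 3 lay at or below 3912 (low iCrit replicates 2 and 5 and high iCrit replicate 8) and the next value was 14276. The other 7 high iCrit gilts stood at 35071 or more, a level that 2 of 7 low iCrit gilts reached. The highest value, in high iCrit replicate 7, came from the library with the fewest estimated reads. For AKR1B1 the log2 difference was -1.32 ± 0.82 (SE), with a limma adjusted p of 0.774 and a 95% interval from -3.06 to 0.43. Leaving out low iCrit replicate 2 gave -0.87, leaving out high iCrit replicate 7 gave -1.04 and leaving out high iCrit replicate 8 gave -1.86. With all 3 of these libraries left out it was -1.17. Without low iCrit replicate 6 alone the difference was -1.74 (limma adjusted p = 0.491). The deposited gene model spans 158801 bases, and a smaller model inside it (LOC100524410) was at the floor in every library.

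PTGIS, the synthase of prostacyclin, a vasodilator (chromosome 17, 51153151 to 51200515), had the smallest unadjusted p of the 10 genes. It stood at 1175, 1711 and 3127 in low iCrit gilts at the lowest, median and highest, and at 969, 1410 and 1764 in high iCrit gilts. In 3 of 7 low iCrit gilts it was above every high iCrit gilt. Low iCrit gilts were 0.42 ± 0.19 higher on the log2 scale (SE, limma adjusted p = 0.694; by limma without adjustment, 0.0388), or 1.34-fold with a 95% interval from 1.02 to 1.77. Of the low iCrit gilts 6 of 7 stood above the high iCrit mean, and the difference was 0.29 without low iCrit replicate 6. Stromal fibroblast markers were higher in 7 of 8 genes in low iCrit gilts, with 0 passing the test (8 of 8 after quantile normalization), against 48.3% higher over all tested genes. By limma 2 of the 8 had an unadjusted p under 0.05, both higher in low iCrit gilts, where all tested genes gave 7.13%. The summed level of the 8 markers ran from 197189 to 615989 in low and from 169139 to 293850 in high iCrit gilts. The 615989 belonged to low iCrit replicate 6 alone, and the next highest library, low iCrit replicate 7, stood at 297325.

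**Figure D2:**
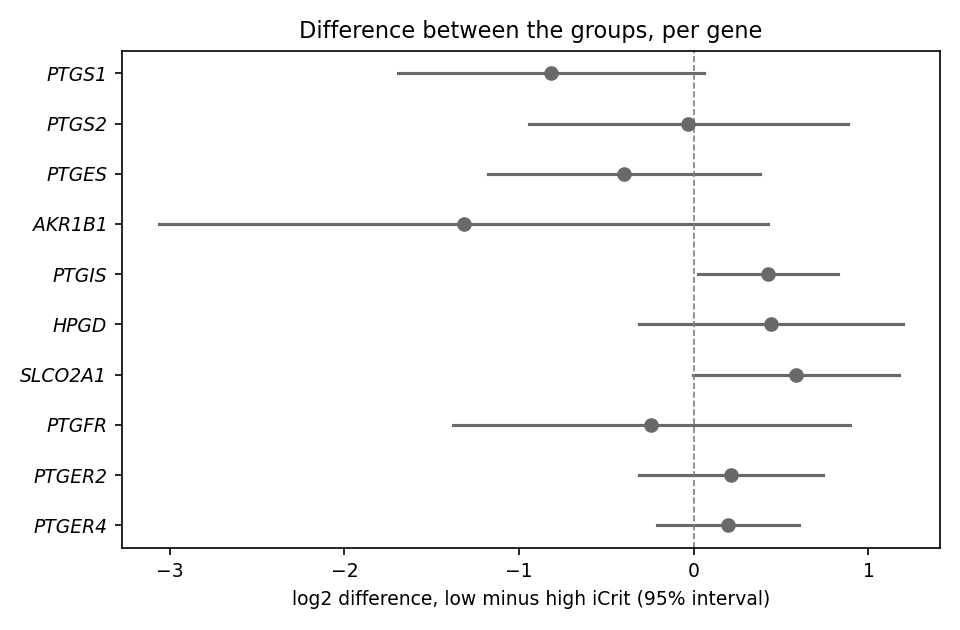
Log2 difference of each of the 10 genes, low minus high iCrit (points), with the 95% interval from limma, not adjusted for the number of genes (bars). The interval of AKR1B1 is the widest, from -3.06 to 0.43, and only the PTGIS interval, 0.02 to 0.82, leaves out 0.

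HPGD, which oxidizes prostaglandins to inactive products (chromosome 14, 15718261 to 15763035 as deposited, ending at 15773534 in Sscrofa11.1), stood at 1759, 2898 and 8682 in low iCrit gilts at the lowest, median and highest. In high iCrit gilts it stood at 1487, 2397 and 6229. Of all libraries 3 stood at 6229 or more (low iCrit replicates 1 and 5 and high iCrit replicate 4) and the others at 3827 or less. HPGD differed by 0.44 ± 0.36 on the log2 scale (SE, limma adjusted p = 0.836, 95% interval -0.32 to 1.20). Leaving out low iCrit replicate 1 gave 0.22, low iCrit replicate 5 gave 0.27 and the 3 libraries apart gave 0.69. SLCO2A1, the carrier that takes prostaglandins into cells (chromosome 13, 75108540 to 75189660), stood at 401, 863 and 1221 in low and at 283, 554 and 874 in high iCrit gilts. Of the low iCrit gilts 3 were above every high iCrit gilt. SLCO2A1 differed by 0.59 ± 0.28 on the log2 scale (SE, limma adjusted p = 0.703), with a 95% interval of the log2 difference from -0.0033 to 1.18. It was 0.36 with quality weights per library and 0.34 when the 3 libraries apart were left out, but 0.67 with estimated reads as a covariate. Leaving out 1 library gave from 0.45 (high iCrit replicate 7) to 0.76 (low iCrit replicate 3).

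Among the receptors, PTGFR, which binds prostaglandin F2α (chromosome 6, 134727334 to 134777067), stood at 363, 1708 and 4847 in low iCrit gilts at the lowest, median and highest, and at 596, 1851 and 4625 in high iCrit gilts. Both groups covered nearly the same wide range. Between the groups PTGFR differed by -0.24 ± 0.54 on the log2 scale (SE, limma adjusted p = 0.952), with a 95% interval from -1.38 to 0.89 and a value of 0.09 without low iCrit replicate 6. Single libraries of both groups moved it by over 1.5 times, down to -0.53 for low iCrit replicate 2, and it was -0.47 when the 3 libraries apart were left out. PTGER2, a receptor for prostaglandin E2 that raises cyclic AMP (chromosome 1, 181993961 to 182009959), stood at 12171, 17867 and 30656 in low and at 10482, 14460 and 29955 in high iCrit gilts. The groups overlapped and differed by 0.21 ± 0.25 on the log2 scale (SE, limma adjusted p = 0.893). Leaving out 1 library gave from 0.086 (low iCrit replicate 5) to 0.35 (high iCrit replicate 2), with 0.14 for low iCrit replicate 2 and 0.13 for high iCrit replicate 1, and leaving out the 3 libraries apart gave 0.011.

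PTGER4, another cyclic AMP-raising receptor for prostaglandin E2 (chromosome 16, 25670832 to 25686556), stood at 1078, 1412 and 1570 in low and at 721, 1232 and 2352 in high iCrit gilts. The low iCrit values lay within the high iCrit range, with a log2 SD of 0.17 for low iCrit and 0.52 for high iCrit, whose difference was not tested. PTGER4 differed by 0.19 ± 0.19 on the log2 scale (SE, limma adjusted p = 0.870), by 0.089 when high iCrit replicate 4 was left out and by 0.33 when high iCrit replicate 2 was. As a fold, the 95% interval reached from 0.86 to 1.52 for PTGER4 and from 0.81 to 1.67 for PTGER2, narrow beside that of AKR1B1, from 0.12 to 1.34.

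Balances within a library need no scaling between libraries, and are given as a description without a test. The log2 ratio of PTGES to AKR1B1 was -5.05 ± 1.13 for low iCrit (SD, n = 7) and -5.96 ± 1.41 for high iCrit (SD, n = 8). It varied 26.6-fold, from -7.57 in high iCrit replicate 7 to -2.83 in high iCrit replicate 8, so the extremes both came from the high iCrit group. The ratio of PTGS2 to PTGS1 was 5.91 ± 1.10 against 5.11 ± 1.24, and that of PTGES to HPGD was -2.88 ± 0.99 against -2.04 ± 0.83. The ratio of the receptors PTGER2 to PTGFR was 3.62 ± 1.15 against 3.16 ± 0.95. Each of these differences was smaller than the SD between gilts of a group, except that the -0.84 of PTGES to HPGD was about the SD of 0.83 among high iCrit gilts. That depended on single libraries. With high iCrit replicate 8 left out PTGES to AKR1B1 differed by 1.36, above the low iCrit SD, and by 1.15 with low iCrit replicate 6 left out. With low iCrit replicate 6 left out PTGES to HPGD differed by -1.16 and PTGER2 to PTGFR by 0.21, and the latter by 0.75 with low iCrit replicate 4 left out. Left out singly, high iCrit replicates 8 and 4 took PTGES to HPGD to -1.02 and -1.01.

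Across the 15 gilts, whatever their group, PTGES and AKR1B1 went up and down together, and PTGES and PTGFR went opposite ways. Over all 45 pairs of members 2 passed by Pearson's r and 1 by Spearman's rho, adjusted over the pairs. For PTGES and AKR1B1 r was 0.78 (permutation p = 0.00051, adjusted 0.0229) and rho 0.84 (permutation p = 0.00025, adjusted 0.0112, n = 15). Leaving out the libraries with the most extreme PTGES, high iCrit replicate 6 and low iCrit replicate 2, gave 0.73, and r was 0.76 after removing the group means, 0.88 within low and 0.59 within high iCrit gilts. Since 3 libraries stood apart at low AKR1B1, r was also taken over the other 12. There it was 0.71 (permutation p = 0.0106) with a rho of 0.73 (permutation p = 0.0086). The adjusted permutation p for that r was 0.0132, over only 5 such relations added after the data were seen, not over the 45 pairs. The call was lost when low iCrit replicate 2 was left out (r = 0.69, adjusted permutation p = 0.220), or low iCrit replicate 6 (r = 0.76, adjusted permutation p = 0.0666), or all 3 libraries apart (r = 0.69).

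For PTGES and PTGFR r was -0.72 (permutation p = 0.002, adjusted 0.0450) and rho -0.73 (permutation p = 0.00314, adjusted 0.0706). Without the libraries with the most extreme PTGES r was -0.66, and it was -0.90 within low and -0.56 within high iCrit gilts. This pair lost its call without any one library other than low iCrit replicate 7 and high iCrit replicates 4 and 5, though r stayed between -0.81 and -0.66. The gilts with the lowest PTGFR value, 363, and the highest, 4847, were low iCrit replicates 6 and 2, where PTGES stood at 1030 and 170. The next pairs by p did not pass: PTGER2 with PTGER4 had r = 0.57 (permutation p = 0.0236, adjusted 0.354) and rho = 0.69 (permutation p = 0.00531, adjusted 0.0796), falling to r = 0.30 without the extreme PTGER2 libraries. That pair did pass when high iCrit replicate 4 was left out (r = 0.76, adjusted permutation p = 0.0158). AKR1B1 with PTGFR had r = -0.50 (permutation p = 0.0551, adjusted 0.466) and rho = -0.58 (permutation p = 0.0259, adjusted 0.233), and -0.35 without the extreme AKR1B1 libraries. PTGES with PTGER2 had r = -0.49 (permutation p = 0.0655, adjusted 0.466) and rho = -0.51 (permutation p = 0.0567, adjusted 0.364), and -0.28 without the extreme PTGES libraries.

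**Figure D3:**
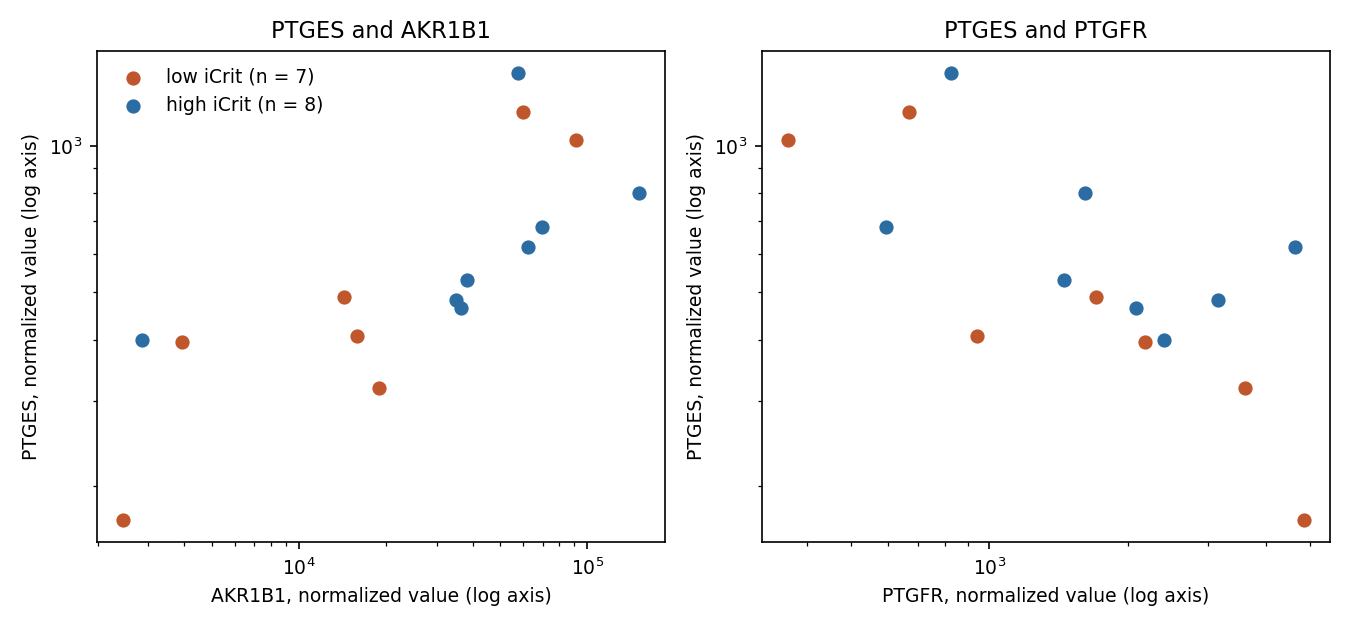
PTGES against AKR1B1 (left) and against PTGFR (right), normalized expression values on log axes, 1 point per gilt, low iCrit in orange (n = 7) and high iCrit in blue (n = 8). PTGES goes up with AKR1B1 (r = 0.78) and down with PTGFR (r = -0.72), and low iCrit replicate 2 sits at the lowest PTGES, 170, in both.

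These values are from whole tissue, in which fewer cells of a type and less RNA per cell cannot be told apart, so the members were set beside markers of 7 cell types and estimated reads (80 relations, added after the data were seen). PTGES followed the mean of 7 epithelial markers closely, with r = 0.93 (permutation p = 1e-05, the smallest these permutations can give, adjusted 0.0004, n = 15) and rho = 0.84 (permutation p = 0.00023, adjusted 0.0092). It was 0.87 without the libraries with the most extreme marker mean, low iCrit replicate 2 and high iCrit replicate 6. AKR1B1 rose with the same markers at r = 0.76 (permutation p = 0.00073, adjusted 0.0195; rho = 0.81, permutation p = 0.00035, adjusted 0.0093) and 0.67 without those libraries. PTGFR went against them at r = -0.75 (permutation p = 0.0013, adjusted 0.0260; rho = -0.68, permutation p = 0.00597, adjusted 0.116) and -0.68 without those libraries. The AKR1B1 relation lost its call after quantile normalization and without low iCrit replicate 2, and that of PTGFR without low iCrit replicates 1, 2 or 6 or high iCrit replicate 4. Both lost it when the 3 libraries apart were left out, with r at 0.70 and -0.75 (adjusted permutation p = 0.0903 for each). The epithelial marker mean moved with all 3 genes of the called pairs, and its part in those pairs was not tested. All 7 of these markers had a lower mean in low iCrit gilts, 0 passing, by a median of -0.15 on the log2 scale, with a summed level of 84630 to 162766 against 112410 to 169713. With their mean as a covariate the log2 difference between the groups was 0.10 for PTGES, -0.41 for AKR1B1 and -0.93 for PTGFR, with limma adjusted p of 0.873, 0.863 and 0.391.

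PTGIS followed the mean of 8 stromal fibroblast markers, with r = 0.94 (permutation p = 1e-05, adjusted 0.0004, n = 15) and rho = 0.92 (permutation p = 1e-05, adjusted 0.0008). Without the libraries with the most extreme marker mean, high iCrit replicate 2 and low iCrit replicate 6, it was 0.88. With that mean as a covariate the PTGIS difference between the groups went from 0.42 to 0.12 on the log2 scale (limma adjusted p = 0.759). PTGER4 went with the leukocyte markers at r = 0.75 (permutation p = 0.00235, adjusted 0.0376; rho = 0.54, permutation p = 0.041, adjusted 0.216), and at 0.60 without high iCrit replicates 2 and 8. High iCrit replicate 2 alone had both the highest PTGER4 value, 2352, and the highest summed leukocyte level, 9578, and without it r was 0.55 and the call was lost. The call was also lost without low iCrit replicates 1 or 2 or high iCrit replicates 4 or 6, with r from 0.71 to 0.74. It was lost too with log2(value + 16) (r = 0.73, adjusted permutation p = 0.0574) and when the 3 libraries apart were left out (r = 0.80, adjusted permutation p = 0.0587). Of the 8 leukocyte markers 5 had a higher and 3 a lower mean in low iCrit gilts, 0 passing, and their sum ran from 3166 to 6468 against 3045 to 9578. These 5 relations were those that passed by Pearson's r, and 3 of them passed by rho. Those of PTGES and PTGIS kept their call in all settings tried, without each library included.

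**Figure D4:**
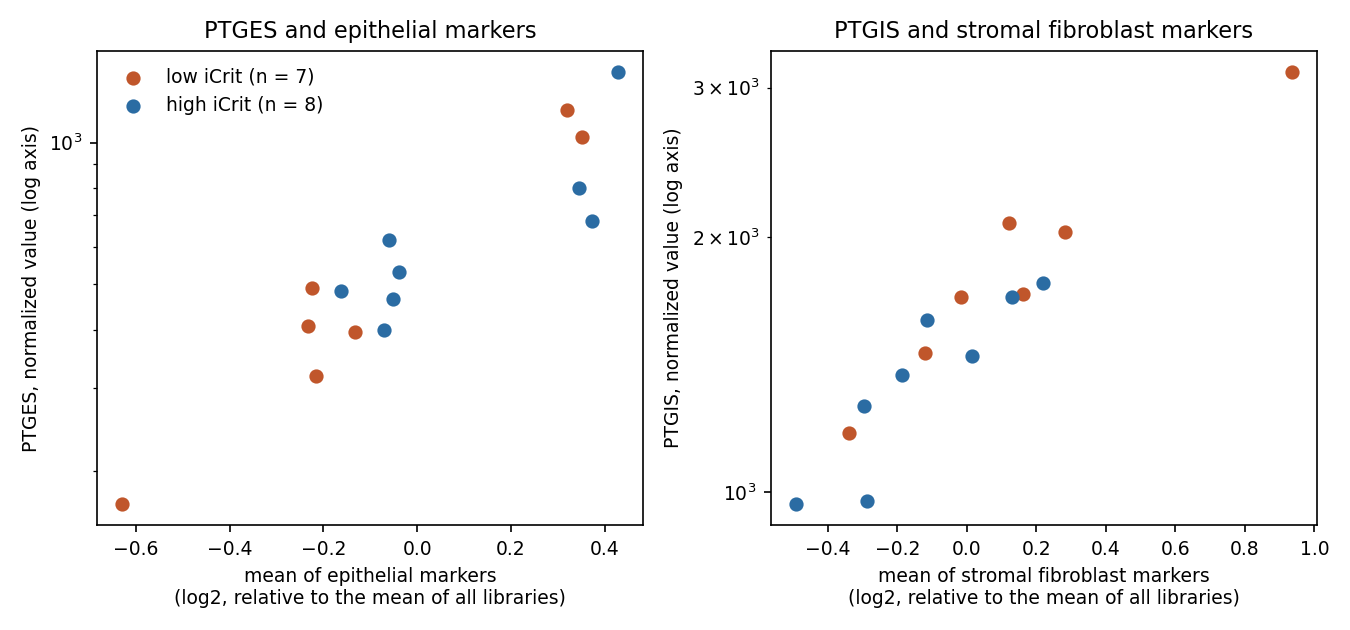
PTGES against the mean of 7 epithelial markers (left) and PTGIS against the mean of 8 stromal fibroblast markers (right), 1 point per gilt, low iCrit in orange (n = 7) and high iCrit in blue (n = 8). The marker mean is on the log2 scale relative to the mean of all libraries and the gene is a normalized value on a log axis, and both genes climb with their markers (r = 0.93 and 0.94).

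PTGS2 and its neighbour PLA2G4A went up and down together across gilts. PLA2G4A, the cytosolic phospholipase A2 that frees arachidonic acid for PTGS2, lies on chromosome 9 from 127853581 to 128164825 on the plus strand, so its deposited model shares 5286 bases with that of PTGS2 on the minus strand. PLA2G4A values ran from 847 to 6083 with a median of 3462, and over the 15 gilts r with PTGS2 was 0.94 (permutation p = 1e-05, the smallest these permutations can give, adjusted 3e-05 over 3 neighbour pairs) and rho 0.86 (permutation p = 0.0001, adjusted 0.0003). It was 0.83 without low iCrit replicate 2 and high iCrit replicate 7, where PTGS2 was lowest. The labels' protocol names no strand-specific step and no source used here says how reads were counted, so reads from the shared bases cannot be assigned to either gene, and their part in this relation was not tested. Between the groups PLA2G4A did not pass the test either, at 0.14 on the log2 scale (limma adjusted p = 0.956).

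**Figure D5:**
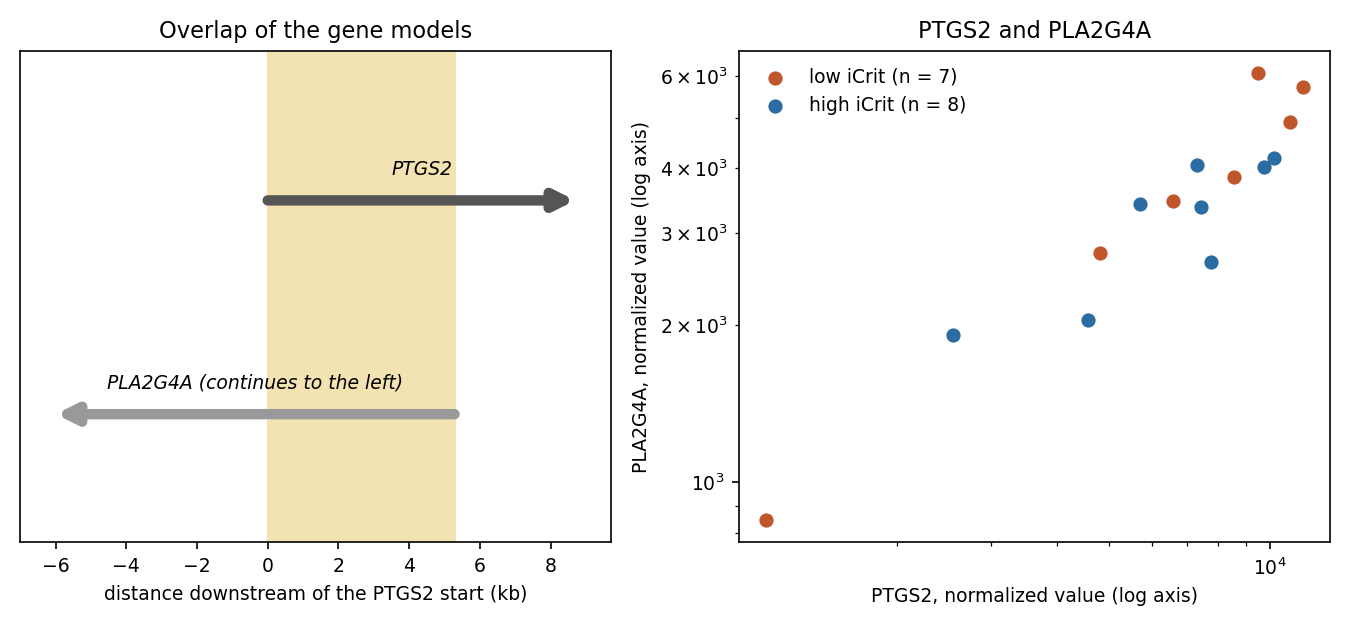
Left, the deposited gene models of PTGS2 and PLA2G4A as arrows in their direction of transcription, by distance from the PTGS2 start in kb, with the shared stretch of 5286 bases shaded. Right, PLA2G4A against PTGS2, normalized values on log axes, 1 point per gilt, low iCrit in orange (n = 7) and high iCrit in blue (n = 8), which lie along a line (r = 0.94).

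For the other neighbours no relation passed. PTGDR, a receptor for prostaglandin D2, shares 12415 bases with PTGER2 on the same strand of chromosome 1 and had values of 17.8 to 80.7, with r = -0.14 (permutation p = 0.635, adjusted 0.635) and rho = -0.05 (permutation p = 0.854). BPGM, a glycolytic enzyme gene, starts 195 bases from AKR1B1 on the opposite strand of chromosome 18, with values of 621 to 4659. BPGM and AKR1B1 had r = 0.37 (permutation p = 0.190, adjusted 0.285) and rho = -0.03 (permutation p = 0.913), and r was -0.04 without the extreme AKR1B1 libraries. These 3 pairs were chosen by position after the data were seen.

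Among 8155 named genes whose mean reached that of the median tested gene, the closest in pattern to each member was found by Spearman's rho over the 15 libraries, as a description. For PTGS2 these were EVPL, a protein of epithelial cell junctions (rho = 0.89), SPRY1, an inhibitor of growth factor signalling (0.88), and PLA2G4A (0.86). For AKR1B1 they were SLC27A4, a fatty acid transport protein (0.96), RAB25, a vesicle GTPase of epithelia (0.94), and ATP5F1, a subunit of ATP synthase (0.94). For PTGFR they were CRTC3, a coactivator of cyclic AMP-responsive transcription (0.85), NAA16, a subunit of a protein acetyltransferase (0.83), and PHLPP1, a phosphatase that acts on AKT (0.825). All rho given here and below are among the highest of 8155 over 15 libraries. They are high in part by that selection, and none was tested.

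The closest gene to PTGES was the tetraspanin CD82 (rho = 0.92), to PTGS1 the laminin chain LAMB3 (0.90), to PTGIS the endocytic receptor LRP1 (0.89) and to HPGD the actin-binding protein CALD1 (0.86). To SLCO2A1 it was the histone deacetylase HDAC4 (0.89), to PTGER2 the sodium-potassium-chloride cotransporter SLC12A2 (0.88) and to PTGER4 WDR44 (0.90). SLC12A2 values ran from 18689 to 56846 and those of SLC27A4 from 1456 to 7930.

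Other genes of the prostanoid pathway did not pass the test. Of 36 symbols listed 32 were in the table, with AKR1C1 as 2 models, and all 33 models were tested. By limma 0 passed over all genes and 0 had an unadjusted p under 0.05, against 7.13% of all tested genes. In low iCrit gilts 11 of them had a higher and 22 a lower mean, with a median log2 difference of -0.12 against -0.01 over all tested genes, and the split was 11 and 22 after quantile normalization and after median centring too. The smallest p on the lower side belonged to PLA2G6, a calcium-independent phospholipase A2, at 771 ± 199 for low iCrit and 913 ± 106 for high iCrit (SD, limma adjusted p = 0.743), and to CBR1, a carbonyl reductase that converts prostaglandin E2 to F2α, at 111 ± 30.1 and 170 ± 106 (limma adjusted p = 0.743). On the higher side they were PTGR2, a prostaglandin reductase (2389 ± 444 and 2163 ± 275, limma adjusted p = 0.857), and SLCO4A1, an organic anion carrier (42.2 ± 30.2 and 28.2 ± 15.0, limma adjusted p = 0.864).

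Of 12 genes of signals that act on prostaglandin output 11 were tested, 6 with a higher and 5 with a lower mean in low iCrit gilts, 0 passing and 1 at an unadjusted p under 0.05, where all tested genes gave 7.13%. That gene was LHCGR, the luteinizing hormone receptor, at 6.18, 6.44 and 13.1 in low and 1, 3.87 and 9.63 in high iCrit gilts at the lowest, median and highest, a few units above the floor of 1. By limma its adjusted p was 0.672. EGFR, the epidermal growth factor receptor, stood at 5965 ± 2791 for low iCrit and 4313 ± 1932 for high iCrit (SD, limma adjusted p = 0.763). LPAR3, a receptor for lysophosphatidic acid, had log2 and linear means of opposite sign, -0.71 on the log2 scale with 1919 ± 2803 and 1568 ± 1098 (limma adjusted p = 0.890). TNFRSF1A, a receptor for tumour necrosis factor, stood at 4423 ± 1081 and 4582 ± 849 (limma adjusted p = 0.954).

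The small-RNA libraries of the same gilts were used for 2 miRNAs that act on Ptgs2 mRNA in mouse uterus, miR-101 and miR-199a-3p. Each had 2 entries, and reads of a mature miRNA may count at both. Against the groups 0 of 302 tested miRNA entries passed by limma (0%), with 21 at an unadjusted p under 0.05 (6.95%), 10 with the higher (3.31%) and 11 with the lower mean (3.64%) in low iCrit gilts, and 1 whose groups lay wholly apart (0.331%). Neither miRNA was among these. The miR-101 entry on chromosome 1 stood at 22593, 29119 and 36232 in low and at 19126, 30150 and 34266 in high iCrit gilts at the lowest, median and highest, overlapping throughout (0.04 ± 0.13 on the log2 scale, SE, limma adjusted p = 0.914). The miR-199a-3p entry on chromosome 2 stood at 152259, 201135 and 269186 in low and at 184634, 222129 and 254320 in high iCrit gilts (-0.06 ± 0.13 on the log2 scale, SE, limma adjusted p = 0.875).

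No relation of either miRNA with PTGS2 across gilts passed. For those entries r with PTGS2 was -0.28 (permutation p = 0.317, adjusted 0.569 over 4 entries, n = 15) and 0.22 (permutation p = 0.443, adjusted 0.569), and rho was -0.35 (permutation p = 0.204, adjusted 0.817) and 0.05 (permutation p = 0.872, adjusted 0.872). Without low iCrit replicate 2 and high iCrit replicate 7 r was -0.18 and -0.21. The other entries gave r of -0.16 for miR-101 (permutation p = 0.569, rho = -0.12, permutation p = 0.676) and 0.22 for miR-199a-3p (adjusted permutation p = 0.569, rho = 0.05, permutation p = 0.872).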

How the data were processed

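Per the labels' protocols, endometrium was frozen, and RNA of integrity 7.5 or higher gave poly(A) libraries (paired-end 50 bp) and small-RNA libraries (single-end 50 bp) on an Illumina HiSeq instrument. The authors deposited 1 table per assay of normalized values, used here as signal: linear, with library scaling and a floor of 1. The sources used here do not name the aligner, counter, build or scaling method. Coordinates of 27579 of 28224 gene models (97.7%) equalled the Sscrofa11.1 gene table. Low values were multiples of 1 step per library (91.6 to 94.1% of mRNA values within 0.05 steps, where random values reach 10%), which gave the depth; no counts were rebuilt. A fold change on log2(value + 1) understates that of low genes.

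Groups were tested with limma 3.58.1 (R 4.3.3) with an intensity trend and no covariate, Benjamini-Hochberg adjusted over all features above the floor in at least 7 libraries, threshold 0.05, two-sided, which was tested on simulated data. There 34.3% of 1.5-fold, 68.7% of 2-fold and 93.9% of 4-fold changes were called. Recovery for the members alone was not estimated. Correlations used log2 values, 100000 two-sided permutations and Benjamini-Hochberg adjustment within each family. Correlations and descriptions used pandas 2.3.3 and numpy 2.4.6 in Python 3.11.15, and figures matplotlib 3.10.9. The 10 members and all lists were chosen with earlier results of these data known. Named genes were all members, the 2 smallest p per direction in each of the pathway and signal lists, the closest gene to each member (3 for PTGS2, AKR1B1 and PTGFR; names starting with LOC left out), the 5 pairs with the smallest p and the 2 miRNAs. Samples are separate gilts, numbered within groups in record order, which pairs nothing. Promoter motifs, planned, were not analysed here, and 0 per-sample columns were left unmapped.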

Additional observations from a re-analysis of the deposited data

Results flagged for a closer look

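Among 20 tests of a library apart (10 genes in each group, on the log2 scale), 3 found one by Dixon's criterion, where chance gives about 1 in 20. PTGS2 at 1140 in low iCrit replicate 2 was far below the other low iCrit gilts, with a gap of 0.62 of the group's range against a critical 0.568. The same library had the lowest summed epithelial marker level. AKR1B1 at 2841 in high iCrit replicate 8 was far below the other high iCrit gilts, with a gap of 0.63 of the range against 0.526, in the library with the highest summed conceptus markers. PTGER4 at 1078 in low iCrit replicate 1 lay below an otherwise narrow low iCrit range, with a gap of 0.62 against 0.568.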

How the results depend on the processing

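The count of mRNA calls was 0 in all 26 alternatives and that of miRNA calls 0 in all 18. Of the members, PTGS2 turned sign with quality weights (0.16), without the 3 libraries apart (0.20), with the epithelial covariate (0.14) and among the fits without 1 library (-0.22 to 0.38), and PTGES with the epithelial covariate (0.10). PTGFR ran from -0.53 to 0.093 without 1 library, the latter without low iCrit replicate 6. The entries of miR-199a-3p, near 0, were 0.0217 and 0.0219 after median centring and ran from -0.126 to 0.0109 and from -0.126 to 0.0107 without 1 library, and those of miR-101 from -0.036 to 0.10 and from -0.027 to 0.105. The cause was not tested. The other 7 members kept their sign in all settings. Pairs of members called were 0 without the 3 libraries apart and 0 to 3 without 1 library. The covariates of marker means and the marker and neighbour relations were added after the data were seen. No paired analysis was possible because the labels give the groups no shared replicate numbers. Estimated depth was 23.6 M reads or more per mRNA library, and the part of depth in the spread between gilts was not tested.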

Other observations

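The prostanoid receptors outside the 10 members, chosen by role, were all measured, and none passed the limma test after adjustment. Of these, 0 of 6 had an unadjusted p under 0.05, against 7.13% of all tested genes. PTGER3, a prostaglandin E2 receptor that lowers cyclic AMP, stood at 151, 241 and 279 in low and at 173, 230 and 567 in high iCrit gilts at the lowest, median and highest (limma adjusted p = 0.907). PTGDR2, the prostaglandin D2 receptor of type 2 immune cells, had a median and a highest value of 149 and 727 in low and of 420 and 902 in high iCrit gilts (limma adjusted p = 0.951). The thromboxane receptor TBXA2R stood at 63.1, 84.4 and 161 in low and at 59.5, 92.9 and 148 in high iCrit gilts (limma adjusted p = 0.976), and the prostacyclin receptor PTGIR at 26.1, 36.0 and 55.5 against 21.6, 35.0 and 69.3 (limma adjusted p = 0.979). PTGER1 and PTGDR had highest values of 46.3 and 80.7, with limma adjusted p of 0.987 and 0.919.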
